A study of Homo sapiens with 9 samples.

Results

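The MHC class I antigen presentation genes examined here are 9 genes named by symbol: the heavy chains HLA-B, HLA-C, HLA-E and HLA-F, the light chain B2M, the peptide transporter subunits TAP1 and TAP2, the loading chaperone TAPBP and the transcriptional regulator NLRC5. They were picked by name and not by a measured value, and all 9 were found among the 39603 gene symbols of every count table. The tables also hold rows with a symbol and a numeric suffix, which mark further placements of the same gene, and the 9 genes had 51 rows in all.

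RNA was sequenced from U2OS cells, an osteosarcoma line, in 3 groups of 3 libraries: cells given an siRNA against NFKB2 (siNFKB2), cells given an siRNA against RELB (siRELB), and cells given a non-silencing siRNA (siNS). Every group received siRNA at 75 nM with a lipid reagent, and RNA was taken 48 hours later, so the siNS cells carry the transfection too. NFKB2 and RELB encode partner subunits of the non-canonical NF-kB pathway, and the comparisons ask how loss of each partner affects transcripts. Each knockdown was made in a single cell line, and the siRNA sequences were not at hand, so effects beyond the named target cannot be told apart from effects of its loss.

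Class I molecules display peptides of the cell's own proteins to CD8+ T cells. Proteasomes make the peptides, the TAP1 and TAP2 transporter carries them into the endoplasmic reticulum, and TAPBP, with calreticulin and the thiol isomerase PDIA3, helps to load them on a heavy chain bound to B2M. Transcription of these genes is known to be driven through NF-kB and interferon response elements in their promoters and by NLRC5, which acts with the RFX, CREB/ATF and NF-Y factors.

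Stretches of 6 promoters are printed because the siRNAs target NF-kB subunits and the class I promoters are known for their NF-kB elements. They come from RefSeq on GRCh38.p14, which listed a promoter for 7 of the 9 genes, and were searched on both strands for the kB consensus and for the interferon response core, GAAA followed after any 2 bases by GAAA again. Capitals mark the matches of both motifs, and overlapping matches run together.
HLA-B (chr6:31357278-31357377, minus strand): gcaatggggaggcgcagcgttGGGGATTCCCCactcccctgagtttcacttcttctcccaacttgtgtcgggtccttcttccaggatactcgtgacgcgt
HLA-C (chr6:31272187-31272286, minus strand): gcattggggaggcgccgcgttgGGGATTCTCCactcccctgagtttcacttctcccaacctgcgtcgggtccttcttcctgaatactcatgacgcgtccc
HLA-F (chr6:29723234-29723333, plus strand): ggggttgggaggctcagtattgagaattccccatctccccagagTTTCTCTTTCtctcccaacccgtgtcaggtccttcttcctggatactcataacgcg
B2M (chr15:44711358-44711457, plus strand): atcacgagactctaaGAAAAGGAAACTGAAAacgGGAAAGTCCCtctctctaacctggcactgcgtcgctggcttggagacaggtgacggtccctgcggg
TAP1 (chr6:32853754-32853853, minus strand): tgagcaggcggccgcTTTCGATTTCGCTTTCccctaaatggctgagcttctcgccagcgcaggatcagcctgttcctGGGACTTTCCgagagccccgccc
TAPBP (chr6:33314050-33314149, minus strand): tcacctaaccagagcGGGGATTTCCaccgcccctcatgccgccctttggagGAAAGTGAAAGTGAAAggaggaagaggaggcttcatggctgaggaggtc

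The kB consensus was found in the windows of HLA-B, HLA-C, B2M, TAP1 and TAPBP, each reaching 250 bases before the start and 50 bases after it. It was not found in those of HLA-F and TAP2. In HLA-B the matches lay from 177 to 167 bases before the start, and in HLA-C the match lay from 172 to 163 bases before it. The interferon response core was found in HLA-F, B2M, TAP1, TAP2 and TAPBP, and not in HLA-B or HLA-C. Among 35116 RefSeq promoters of the same length, 5.91% held a kB match and 3.57% an interferon response core. A further TAP1 window, chr6:32852712-32853011, held neither motif. A match describes letters and is not evidence that a factor binds there in these cells. Nor is the lack of a match to these strict patterns evidence that an element is absent.

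The libraries held 15011789 to 19279572 counts, so 1 count was worth 0.0512 to 0.0662 CPM, counts scaled to library size. Both targets were lower in the cells given their own siRNA. NFKB2 was at 5.26, 22.9 and 48.4 CPM in siNFKB2 libraries, against 80.7, 126.5 and 117.2 CPM in siNS libraries. RELB was at 2.66, 4.66 and 5.36 CPM in siRELB libraries, against 17.1, 30.3 and 34.1 CPM in siNS libraries. By edgeR's quasi-likelihood test these were log2 fold changes of -2.09 for NFKB2 (adjusted p = 0.0210) and -2.69 for RELB (adjusted p = 0.00881). Of the 9 fits that left out 1 library, 3 gave an adjusted p above 0.05 for NFKB2, up to 0.0936. For RELB 2 did so, up to 0.0591. The 3 libraries numbered 1 stood apart from those numbered 2 and 3 in every group, and same-numbered libraries deviated together from their group means with correlations of 0.171 to 0.740 across genes. Libraries numbered 2 and 3 correlated across numbers as well, up to 0.664 between siNFKB2 replicate 3 and siNS replicate 2, against 0.250 between siNFKB2 replicate 2 and siNS replicate 2. Results for the class I genes are given also with the replicate number as a block where it changes a call, and list counts likewise. Sums over 9 markers of bone and connective tissue cells were 4490 to 4825 CPM in siNFKB2 libraries, 4594 to 5654 CPM in siRELB libraries and 4837 to 6411 CPM in siNS libraries. The markers were uneven. In siNS libraries VIM averaged 2945 CPM and SPARC 1447 CPM, against 11.8 CPM for RUNX2, 5.07 CPM for ALPL and 1.07 CPM for COL1A2. Sums over 10 blood cell markers were 22.5 to 30.3 CPM in siNFKB2, 18.4 to 20.4 CPM in siRELB and 24.6 to 27.6 CPM in siNS libraries. CD3E and LYZ were at 0 in every library. The highest of these markers in siNS libraries were CD68, CORO1A and LAPTM5, averaging 19.3, 2.91 and 2.90 CPM. Sums over 8 epithelial markers were 578 to 683 CPM in siNFKB2, 642 to 728 CPM in siRELB and 637 to 941 CPM in siNS libraries. Of the bone and connective tissue markers, 5 of 9 were called lower and 1 higher in siNFKB2 against siNS, where 26.1% of all rows tested were called, by edgeR's quasi-likelihood test at an adjusted p below 0.05. In siNFKB2 against siRELB, where 26.6% of all rows were called, 4 of these 9 were lower and 1 higher. There, 2 of 3 tested blood cell markers, LAPTM5 and CD68, were called higher. The other, CORO1A, was lower in value and not called, at a log2 fold change of -0.60 (adjusted p = 0.131). The CD68 call was lost without siNS replicate 3, siNFKB2 replicate 1 or 2, or any siRELB library, with adjusted p up to 0.142. Of 5 tested epithelial markers, CDH1 was called higher and KRT8 and CLDN4 lower in siNFKB2 against siNS, CDH1 higher in siRELB against siNS, where 2.02% of all rows were called, and KRT8 lower in siNFKB2 against siRELB. Both CDH1 calls were lost in 5 of the 9 fits that left out 1 library and that of CLDN4 in 4, with adjusted p up to 0.108 and 0.190 for CDH1 and 0.115 for CLDN4. Under the block, 1 further bone marker and 1 blood cell marker were called lower in siNFKB2 against siNS, LAPTM5 and the epithelial marker KRT18 lower in siRELB against siNS, and KRT18 higher in siNFKB2 against siRELB. Their part in the results for the class I genes was not tested. In bulk RNA, fewer cells of a type and less RNA per cell cannot be told apart.

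Only part of the class I machinery could be measured from these tables. The plain rows of B2M, NLRC5, HLA-C and TAPBP passed the filter on low counts, and HLA-B passed once its rows were summed. HLA-E, TAP1 and TAP2 were listed at 0 in the plain row of every library. Of the 51 rows of the 9 genes, 34 were at 0 in all libraries.

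The counts sat in different rows for different genes. HLA-B had 6 rows, and its plain row held 1 of 3203 counts summed over the 9 libraries, so 99.97% lay in suffixed rows. HLA-C had 7 rows, with 408 of 1238 counts in the plain row and 67.0% in the others. B2M, on chromosome 15, had 7102 of 7114 counts in its plain row, and NLRC5, on chromosome 16, had a single row with 1652 counts. TAPBP, which bridges the peptide transporter and the empty heavy chain, had 98 of 117 counts in its plain row. HLA-F, a heavy chain with a limited tissue range, had 19 counts over all its 7 rows and all 9 libraries, at 2, 1 and 2 in siNFKB2 libraries, 5, 4 and 1 in siRELB libraries and 0, 1 and 3 in siNS libraries. HLA-E, the ligand of the natural killer cell receptor NKG2A, had 1 count over 7 rows, and TAP1 and TAP2 had 0 over 8 rows each. These 4 genes did not pass the filter on low counts, and no fold is given for them.

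**Figure D1:**
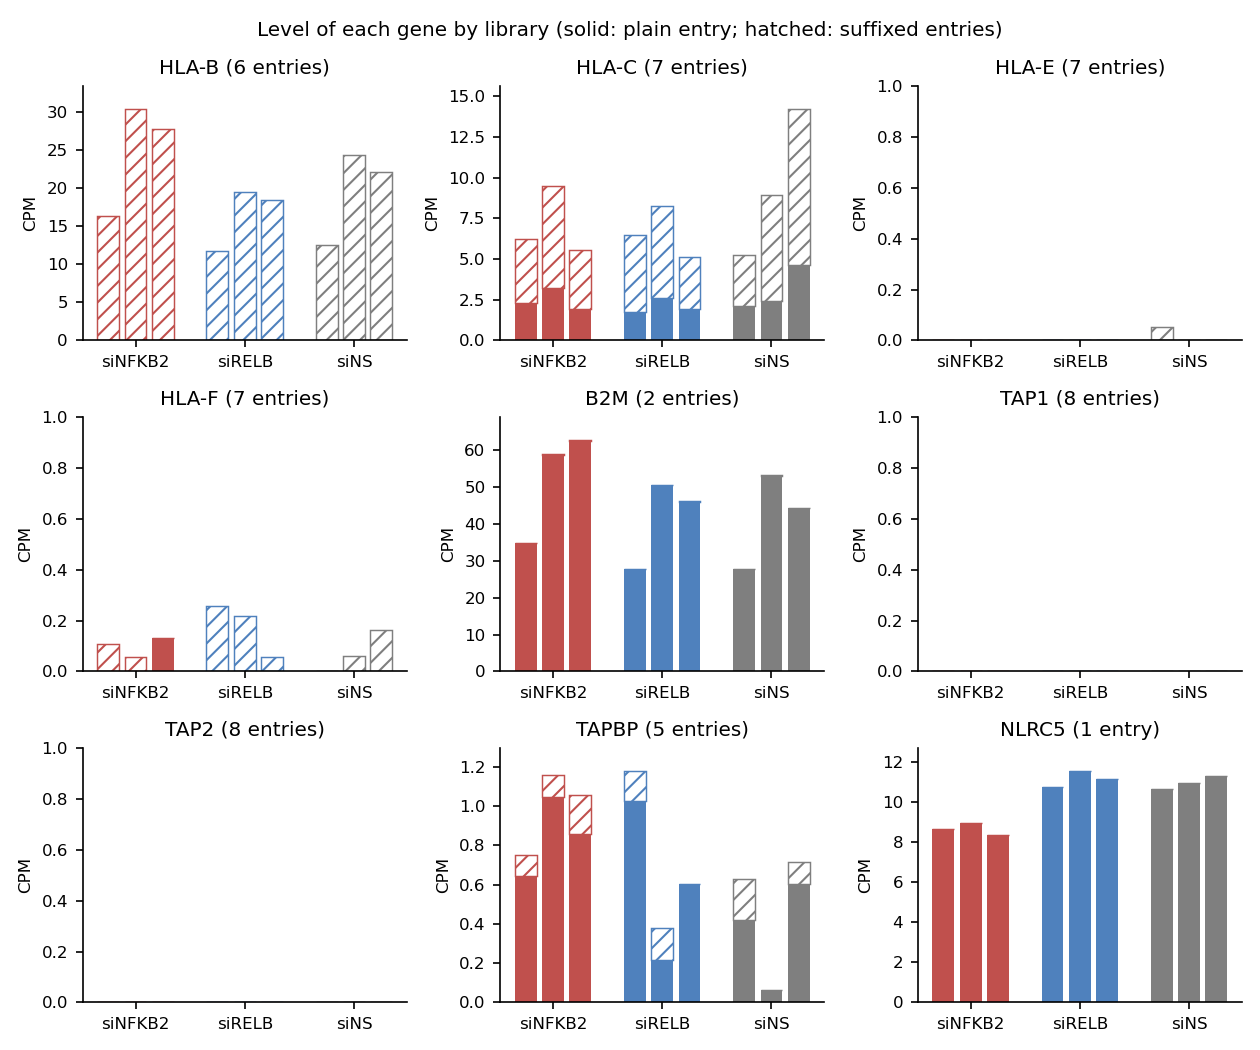
Level of each of the 9 genes in CPM (vertical axis, scaled per gene) in the 9 libraries, grouped as siNFKB2, siRELB and siNS and ordered by replicate number. Solid bars are plain rows and hatched bars the sum of suffixed rows; HLA-B lies almost wholly in suffixed rows, TAP1 and TAP2 are at 0, and the 3 siNFKB2 bars of NLRC5 are below the other 6.

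These zeros followed the position of the genes. In the GENCODE 29 annotation of GRCh38, 7 of the 9 genes lie on chromosome 6 between HLA-F, at chr6:29722775-29738528, and TAPBP, at chr6:33299694-33314387. From the start of HLA-F to the end of TAPBP, 140 of 141 listed protein-coding genes had suffixed rows (99.3%), against 46 of 864 on the rest of the chromosome (5.32%). Plain rows at 0 in every library made up 76.6% of the genes in that stretch and 14.4% of those outside it. Genes that every cell uses were among them: RPS18, which encodes a ribosomal protein, was listed at 0 in all of its 6 rows, and GNL1 and DDX39B were also at 0, all 3 chosen after their values were seen. TUBB, a tubulin gene also chosen that way, had 0 counts in its plain row and 1078 in all its rows. A row at 0 in this stretch is therefore given as listed at 0, not as absence of the transcript.

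The same pattern held over all genes of the tables. Of these, 31.0% of the 36953 symbols with 1 row were at 0 in every library, against 78.4% of the 2028 symbols with 2 rows. It was 84.3% for the 325 symbols with 5 or more. How reads with several placements were counted is not stated in these sources, and its part in these zeros was not tested. Shared sequence between the genes was limited: of the 50-base words in the HLA-B transcripts of GENCODE 29, 2.72% also occurred in transcripts of another gene, and the shares were 5.38% for HLA-C, 4.34% for HLA-E, 4.17% for TAPBP, 0.977% for HLA-F, 0.880% for TAP1 and 0 for B2M and NLRC5. TAP2 was at 31.3%, and 32.3% of its exonic bases overlapped another gene model on the same strand. These shares count only words found under another gene name. They leave out further placements of the same gene, so they cannot bear on the suffixed rows. HLA-B and HLA-C counts remain uncertain as to which heavy chain gene each read came from.

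**Figure D2:**
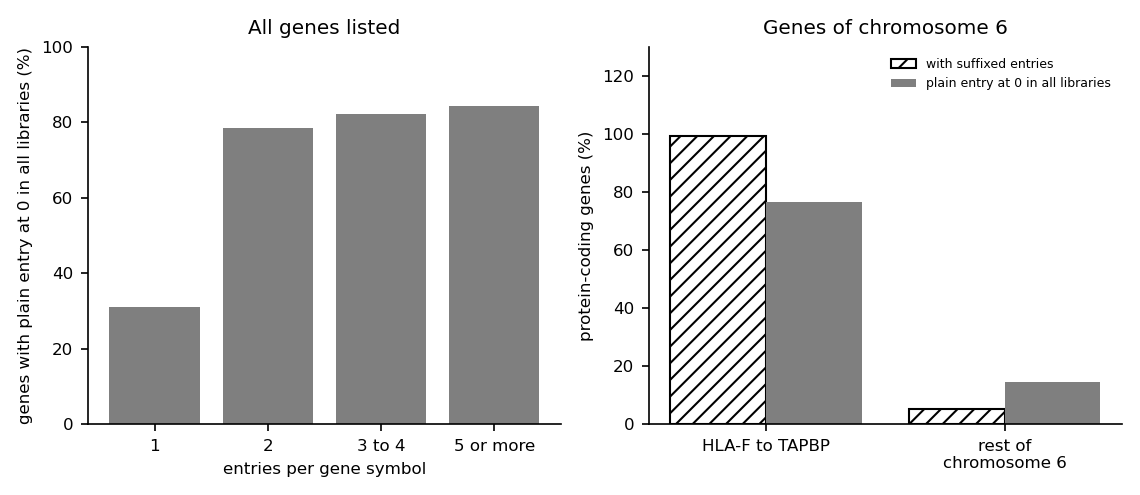
Left, the percentage of gene symbols whose plain row is at 0 in all 9 libraries, by the number of rows of the symbol; right, for protein-coding genes of chromosome 6, the percentage with suffixed rows (hatched) and with a plain row at 0 (grey). The share at 0 is 31.0% with 1 row and 84.3% with 5 or more, and it is 76.6% from HLA-F to TAPBP and 14.4% on the rest of the chromosome.

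Among the genes that could be measured, B2M and HLA-B had the most listed counts for their length. NLRC5 and CALR have 1 row each, while B2M, HLA-B, HLA-C and TAPBP have more. Symbols with more than 1 row were often at 0 here. The order below is therefore one of listed counts and may not be that of RNA amounts. Per kilobase of exon, B2M averaged 8.55 ± 2.48 CPM in siNFKB2, 6.81 ± 1.99 in siRELB and 6.86 ± 2.11 in siNS libraries (SD, n = 3 each). HLA-B, with its rows summed, averaged 8.14 ± 2.46 CPM per kilobase in siNFKB2, 5.42 ± 1.38 in siRELB and 6.44 ± 2.06 in siNS libraries, within 1 SD of the B2M mean in each group. HLA-C, summed, came next at 2.83 ± 0.845 in siNFKB2, 2.64 ± 0.620 in siRELB and 3.78 ± 1.80 in siNS libraries. NLRC5 was at 0.697 ± 0.0241 in siNFKB2, 0.901 ± 0.0319 in siRELB and 0.886 ± 0.0256 in siNS libraries, beyond its SD below HLA-C in each group. TAPBP, summed, was lowest of the 5 at 0.196 ± 0.0421 in siNFKB2, 0.142 ± 0.0815 in siRELB and 0.0928 ± 0.0701 in siNS libraries. CALR, the chaperone calreticulin, reached 472 ± 46.4 CPM per kilobase in siNFKB2, 502 ± 22.2 in siRELB and 583 ± 54.6 in siNS libraries.

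In NFKB2 knockdown cells set against siNS, none of the 4 plain rows tested was called at an adjusted p below 0.05, where 26.1% of the 14815 rows tested across the genome were. Before adjustment 1 of the 4, NLRC5, was below 0.05, beside 5697 of the 14815 rows, and DESeq2 called 0. NLRC5 was lower and B2M, HLA-B and TAPBP were higher in value, and HLA-C was lower. With the replicate block, B2M and summed HLA-B rose and NLRC5 still did not pass.

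NLRC5, the regulator that switches on class I transcription, had the closest replicates of the 5 genes that could be measured. It was at 8.64, 8.94 and 8.34 CPM in siNFKB2 libraries, against 10.7, 10.9 and 11.3 CPM in siNS libraries. All 3 siNFKB2 libraries were below all 3 siNS libraries. The log2 fold change was -0.34 (SE 0.128, 95% interval -0.63 to -0.06, adjusted p = 0.0728). It did not pass the threshold under any of the alternatives tried, which gave adjusted p from 0.0535 to 0.237 and log2 fold changes of -0.37 to -0.31, and the replicate block gave adjusted p = 0.0554.

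B2M, the light chain that every class I molecule needs, was at 34.7, 58.7 and 62.5 CPM in siNFKB2 libraries, against 27.8, 53.0 and 44.4 CPM in siNS libraries. Within each group the library numbered 1 was the lowest, and the groups overlapped, but each siNFKB2 library was above the siNS library of its own number, by 1.25-fold, 1.11-fold and 1.41-fold. On the log2 scale the difference was 0.32 (SE 0.300, adjusted p = 0.479). With the replicate block it was 0.32 (SE 0.105, adjusted p = 0.0286), a call in a fit that called 40.1% of all rows. The share of counts in mitochondrial rRNA also differed among libraries, at 0.519%, 1.01% and 2.68% in siNFKB2 libraries against 0.406%, 1.33% and 0.630% in siNS libraries. With the log2 of that share as a covariate the B2M log2 fold change was 0.03 (adjusted p = 0.902).

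HLA-B, a classical heavy chain, was also lowest in the libraries numbered 1. Summed over its rows it was at 16.3, 30.4 and 27.8 CPM in siNFKB2 libraries, against 12.5, 24.3 and 22.1 CPM in siNS libraries, which is 1.30-fold, 1.25-fold and 1.26-fold by replicate number. The groups overlapped, with the libraries numbered 1 low in both. The log2 fold change was 0.34 (SE 0.302, adjusted p = 0.453), and 0.34 (SE 0.113, adjusted p = 0.0305) with the replicate block. With the log2 of the mitochondrial rRNA share as a covariate it was 0.09 (adjusted p = 0.770). The suffixed rows did not all point the same way: on the log2 scale HLA-B_3 was at 0.51 (adjusted p = 0.362, and 0.0271 with the block) and HLA-B_5 at 0.37 (adjusted p = 0.407, and 0.0530 with the block), while HLA-B_1 was at -0.26 (adjusted p = 0.494).

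HLA-C, the other classical heavy chain that was counted, depended on siNS replicate 3. Its plain row was at 2.31, 3.19 and 1.92 CPM in siNFKB2 libraries, against 2.10, 2.44 and 4.67 CPM in siNS libraries. The third siNS library was the highest of the 9, and the rest overlapped. The log2 change was -0.31 (SE 0.340, adjusted p = 0.549), and without siNS replicate 3 it was 0.14 (adjusted p = 0.807). Summed over its rows the log2 fold change was -0.41 (adjusted p = 0.419), and 0.03 without siNS replicate 3. The row HLA-C_1 had a log2 fold change of -0.83 (adjusted p = 0.278), and passed only without siNS replicate 1, at -1.26 (adjusted p = 0.0361).

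TAPBP, the loading chaperone, had few counts. Its plain row had 12, 18 and 13 counts in siNFKB2 libraries, against 8, 1 and 11 counts in siNS libraries, and the groups did not overlap. The log2 fold change of 1.18 (SE 0.642, adjusted p = 0.205) became 0.72 (adjusted p = 0.412) without siNS replicate 2, the library with 1 count.

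**Figure D3:**
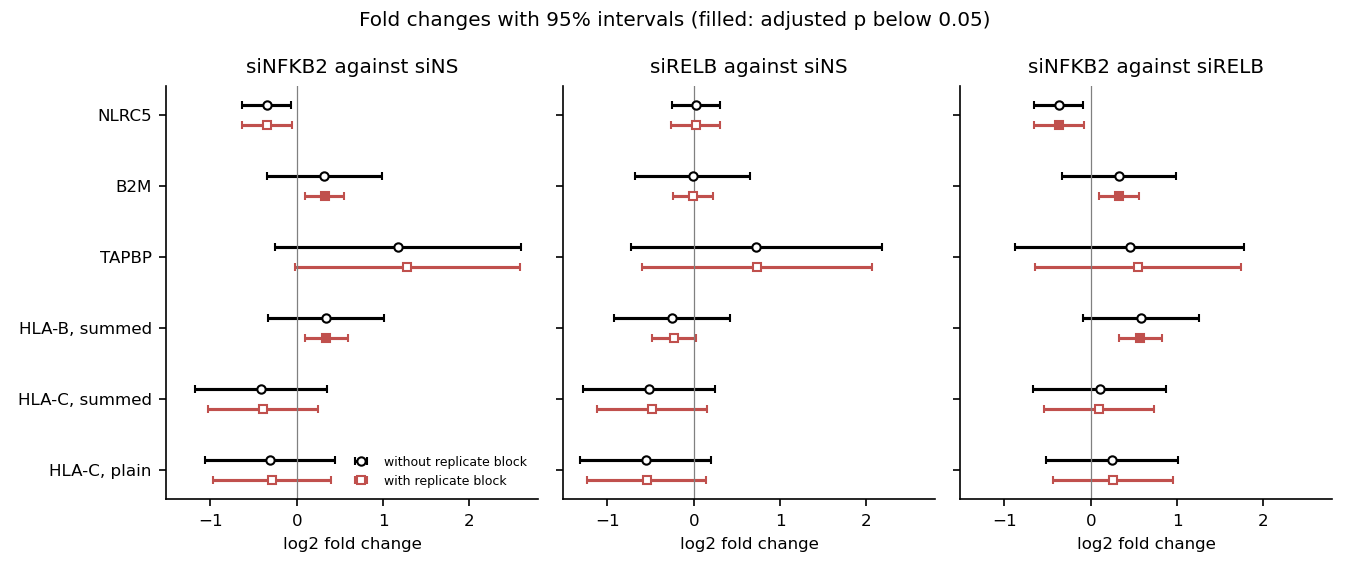
Log2 fold changes (horizontal axis) with 95% intervals for the genes that passed the filter on low counts, in 3 comparisons, without (black circles) and with (red squares) the replicate number as a block. The block leaves the B2M and summed HLA-B values in place and narrows their intervals; filled symbols have an adjusted p below 0.05, and none of the black circles is filled.

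In RELB knockdown cells set against siNS, no member was called either, in a comparison where 2.02% of all rows were. Before adjustment 0 of the 4 were below 0.05 by edgeR, beside 2492 of the 14815 rows tested, and DESeq2 called 0. NLRC5 and B2M sat close to their siNS levels, HLA-B and HLA-C were lower in value and TAPBP was higher. None of the 4 plain rows was called under any alternative, and neither were the summed rows. This comparison and the previous one share the siNS libraries, so their values are set side by side and not correlated.

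NLRC5 was at 10.8, 11.5 and 11.2 CPM in siRELB libraries, against 10.7, 10.9 and 11.3 CPM in siNS libraries. The groups overlapped, and the log2 fold change of 0.02 had a 95% interval of -0.26 to 0.30 (adjusted p = 0.944). B2M was at 27.7, 50.5 and 46.0 CPM in siRELB libraries, against 27.8, 53.0 and 44.4 CPM in siNS libraries. Same-numbered libraries were at 0.998-fold, 0.954-fold and 1.04-fold of each other. For B2M the log2 fold change was -0.01 (95% interval -0.68 to 0.66, adjusted p = 0.991), and the interval with the replicate block, in a fit that called 10.6% of all rows, was -0.24 to 0.22.

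HLA-B, summed, was at 11.7, 19.5 and 18.4 CPM in siRELB libraries, against 12.5, 24.3 and 22.1 CPM in siNS libraries. Each siRELB library was below the siNS library of its number, at 0.937-fold, 0.800-fold and 0.833-fold. The log2 fold change was -0.25 (SE 0.304, adjusted p = 0.730), and -0.23 (adjusted p = 0.220) with the block. HLA-C was at 1.74, 2.60 and 1.91 CPM in siRELB libraries in its plain row, against the siNS values above, and its log2 difference was -0.56 (SE 0.341, adjusted p = 0.446), and -0.12 without siNS replicate 3. TAPBP had 20, 4 and 11 counts in siRELB libraries, against 8, 1 and 11 counts in siNS libraries, and its log2 fold change was 0.73 (SE 0.656, adjusted p = 0.624). Leaving out 1 library moved that value, to 0.14 without siRELB replicate 1, 0.26 without siNS replicate 2, 1.13 without siRELB replicate 2 and 1.26 without siNS replicate 3.

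The direct comparison of the knockdowns, siNFKB2 against siRELB, has no siNS library on either side. None of the 4 plain rows was called, against 26.6% of all rows. Before adjustment 1, NLRC5, was below 0.05, beside 5758 of the 14815 rows tested, and DESeq2 called it. With the replicate block, B2M and summed HLA-B rose and NLRC5 fell, in fits that called 40.9% of all rows.

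All 3 siNFKB2 libraries were below all 3 siRELB libraries for NLRC5, at 8.34 to 8.94 CPM against 10.8 to 11.5 CPM. In the fit the log2 fold change was -0.37 (SE 0.128, 95% interval -0.65 to -0.08), and its adjusted p of 0.0566 was just above the threshold. It was 0.0416 with the replicate block, 0.0419 by DESeq2 and 0.0490 without siNS replicate 1, which enters through the shared estimate of the spread. Over all alternatives it ranged from 0.0324 to 0.210.

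Summed HLA-B averaged 24.8 ± 7.49 CPM in siNFKB2 and 16.5 ± 4.20 CPM in siRELB libraries (SD, n = 3 each). Its ratio was 1.39, 1.56 and 1.51 in the pairs numbered 1, 2 and 3. The log2 fold change was 0.59 (SE 0.303, adjusted p = 0.181), and 0.57 (SE 0.114, adjusted p = 0.00200) with the block. With the mitochondrial rRNA covariate it was 0.23 (adjusted p = 0.444). The row HLA-B_5 had a log2 fold change of 0.67 (adjusted p = 0.129), with 0.00269 under the block and 0.0446 without siNFKB2 replicate 1, and HLA-B_3 was at 0.62 (adjusted p = 0.262), with 0.0134 under the block.

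B2M averaged 52.0 ± 15.1 CPM in siNFKB2 and 41.4 ± 12.1 CPM in siRELB libraries (SD, n = 3 each). Its same-numbered ratios were 1.25, 1.16 and 1.36, and the log2 fold change was 0.33 (SE 0.300, adjusted p = 0.456), with 0.0249 under the block. Mitochondrial rRNA made up 0.519% to 2.68% of counts in siNFKB2 and 0.379% to 0.856% in siRELB libraries. With the log2 of that share as a covariate the B2M log2 fold change was -0.07 (adjusted p = 0.802). The log2 fold change of HLA-C was 0.25 (SE 0.346, adjusted p = 0.635) and that of TAPBP was 0.45 (SE 0.596, adjusted p = 0.616), and both overlapped between the groups. Leaving out 1 library gave 0.041 (without siNFKB2 replicate 2) to 0.44 (without siRELB replicate 2) for HLA-C and 0.052 (without siRELB replicate 2) to 1.04 (without siRELB replicate 1) for TAPBP.

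Over all 3 groups together, none of the 4 plain rows was called, where 30.0% of all rows were. NLRC5 came nearest, at adjusted p = 0.0811, while DESeq2 called 0. It was the 1 row of these below 0.05 before adjustment, and the number over all rows was not counted. With the replicate block B2M passed at adjusted p = 0.0283 and summed HLA-B at 0.00434, in fits that called 48.9% and 49.0% of all rows.

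Across the 9 libraries the plain rows of the 4 members tested correlated weakly or negatively with each other. On log2 CPM, the Pearson correlation of HLA-C was 0.30 with B2M, 0.17 with NLRC5 and -0.08 with TAPBP. That of B2M was -0.26 with NLRC5 and -0.11 with TAPBP, and that of TAPBP with NLRC5 was -0.54. These values share libraries and depth and are given as a description. HLA-B, with its counts in suffixed rows, was not included. Its summed level and that of B2M were both lowest in the library numbered 1 of each group, and their correlation was not computed. The 5 genes most like the mean standardised profile of the 4 members tested were sought among 10613 with a mean of at least 5 CPM. They were LOC441601 at a correlation of 0.908, RNF130 at 0.886, PCBP1 at 0.884, and THOC7 and TMEM128 at 0.871 each, over 9 libraries. That profile averages members that did not vary together. Whether these values exceed what the top of so long a ranking gives by chance was not tested.

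The other genes of the pathway were counted in lists by role. Of 7 peptide transport and loading genes, TAPBP included, 5 were tested. PDIA3, the thiol isomerase of the loading complex, fell in siNFKB2 cells, at 339.6, 309.3 and 259.9 CPM against 378.8, 573.7 and 513.0 CPM in siNS libraries, a log2 fold change of -0.69 (adjusted p = 0.0165). Against siRELB its log2 fold change was -0.56 (adjusted p = 0.0401), and no gene of the list was called in siRELB against siNS. These were 1 of 5 genes in each comparison of siNFKB2, where 26.1% and 26.6% of all rows were called. The PDIA3 call against siNS was lost without siNS replicate 3 (adjusted p = 0.0578), siNFKB2 replicate 2 (0.0521) or siNFKB2 replicate 3 (0.0606), and that against siRELB was lost without siNS replicate 3, siNFKB2 replicates 2 or 3, or siRELB replicates 2 or 3, with adjusted p up to 0.144. CALR had a log2 fold change of -0.30 in siNFKB2 against siNS (adjusted p = 0.0668, and 0.0262 without siNS replicate 1) and -0.22 in siRELB against siNS (adjusted p = 0.354). CANX, the chaperone calnexin, had a log2 fold change of 0.67 in siNFKB2 against siNS (adjusted p = 0.218), and passed without siNS replicate 1 at 1.26 (adjusted p = 0.00975). Under the block, CALR (adjusted p = 0.0234) and CANX (0.00553) also passed in siNFKB2 against siNS, in a fit that called 40.1% of all rows. The median log2 fold change of the 5 genes was 0.42 in siNFKB2 against siNS, beside -0.00373 over all rows tested, 0.33 in siRELB against siNS, beside -0.016, and 0.090 in siNFKB2 against siRELB, beside 0.022.

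Peptide supply, the proteasome subunits and trimming peptidases, showed no call without the replicate block in any comparison among 4 of 8 genes tested, by edgeR or DESeq2. With the block, PSME3 passed in siRELB against siNS at a log2 fold change of -0.42 (adjusted p = 0.0148) and in siNFKB2 against siRELB at 0.44 (adjusted p = 0.00265), where 10.6% and 40.9% of all rows were called. Before adjustment 0 were below 0.05 in siNFKB2 against siNS, 2 in siRELB against siNS and 1 in siNFKB2 against siRELB. Over all 14815 rows tested these counts were 5697, 2492 and 5758. The median log2 fold changes of the list in these comparisons were 0.11, -0.30 and 0.30. PSMB8, PSMB9 and PSME1 were listed at 0 in every library. ERAP1, which trims peptides in the endoplasmic reticulum, had a log2 fold change of 0.25 in siNFKB2 against siNS (adjusted p = 0.228) and 0.35 in siRELB against siNS (adjusted p = 0.261). Without the block, the lowest adjusted p of the list was that of the proteasome activator PSME3, at 0.43 in siNFKB2 against siRELB (adjusted p = 0.0679, with 0.0432 without siNS replicate 1 and 0.0245 without siRELB replicate 1).

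All 15 regulators of class I transcription, NLRC5 included, were tested. In siNFKB2 against siNS, 3 rose and 1 fell, 4 of 15 where 26.1% of all rows were called, and the median log2 fold change was 0.055. ATF1, a CREB family factor, rose by a log2 fold change of 1.15 (adjusted p = 0.0193), NFKB1, which encodes the p50 precursor, by 0.51 (adjusted p = 0.0166) and IRF2, an interferon regulatory factor, by 0.38 (adjusted p = 0.0317). NFYB, a subunit of the CCAAT-binding factor, fell, with a log2 fold change of -0.53 (adjusted p = 0.0389). None was called in siRELB against siNS. In siNFKB2 against siRELB the log2 fold change of ATF1 was 1.34 (adjusted p = 0.00998) and that of IRF2 was 0.38 (adjusted p = 0.0295). CREB1, of the same family as ATF1, went the other way and was not called in the main fit. In siNFKB2 it was at -0.64 against siNS (adjusted p = 0.0605) and -0.67 against siRELB (adjusted p = 0.0501). Against siRELB it passed in 3 of the 9 fits that left out 1 library, and with the block (adjusted p = 0.000722). IRF1 and RELA, which act on class I promoters, were not called in any comparison without the block, although IRF1 passed in siNFKB2 against siRELB without siRELB replicate 1, at -0.64 (adjusted p = 0.0472), and with the block, at -0.47 (adjusted p = 0.0104).

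These calls differed in how far they rested on 1 library. The ATF1 call against siNS was lost without siNS replicate 2 (adjusted p = 0.0590), siNS replicate 3 (0.0832) or siNFKB2 replicate 2 (0.0749), while its call against siRELB was kept in all 9 such fits. Against siNS, NFKB1 lost its call without replicate 2 or 3 of siNS or siNFKB2, with adjusted p up to 0.0834. IRF2 lost it in 6 fits, those without a replicate 2 or 3 of any group, with adjusted p up to 0.0988. NFYB lost it in 7 of the 9, all but those without siNFKB2 replicate 1 or siRELB replicate 1, with adjusted p up to 0.152. Against siRELB, IRF2 lost it in 5, without siNFKB2 replicate 2 or 3 or any siRELB library, with adjusted p up to 0.107. With the replicate block, 3 regulators were called higher and 2 lower in siNFKB2 against siNS, and 2 higher and 4 lower in siNFKB2 against siRELB, NLRC5 among the lower ones. Those fits called 40.1% and 40.9% of all rows.

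**Figure D4:**
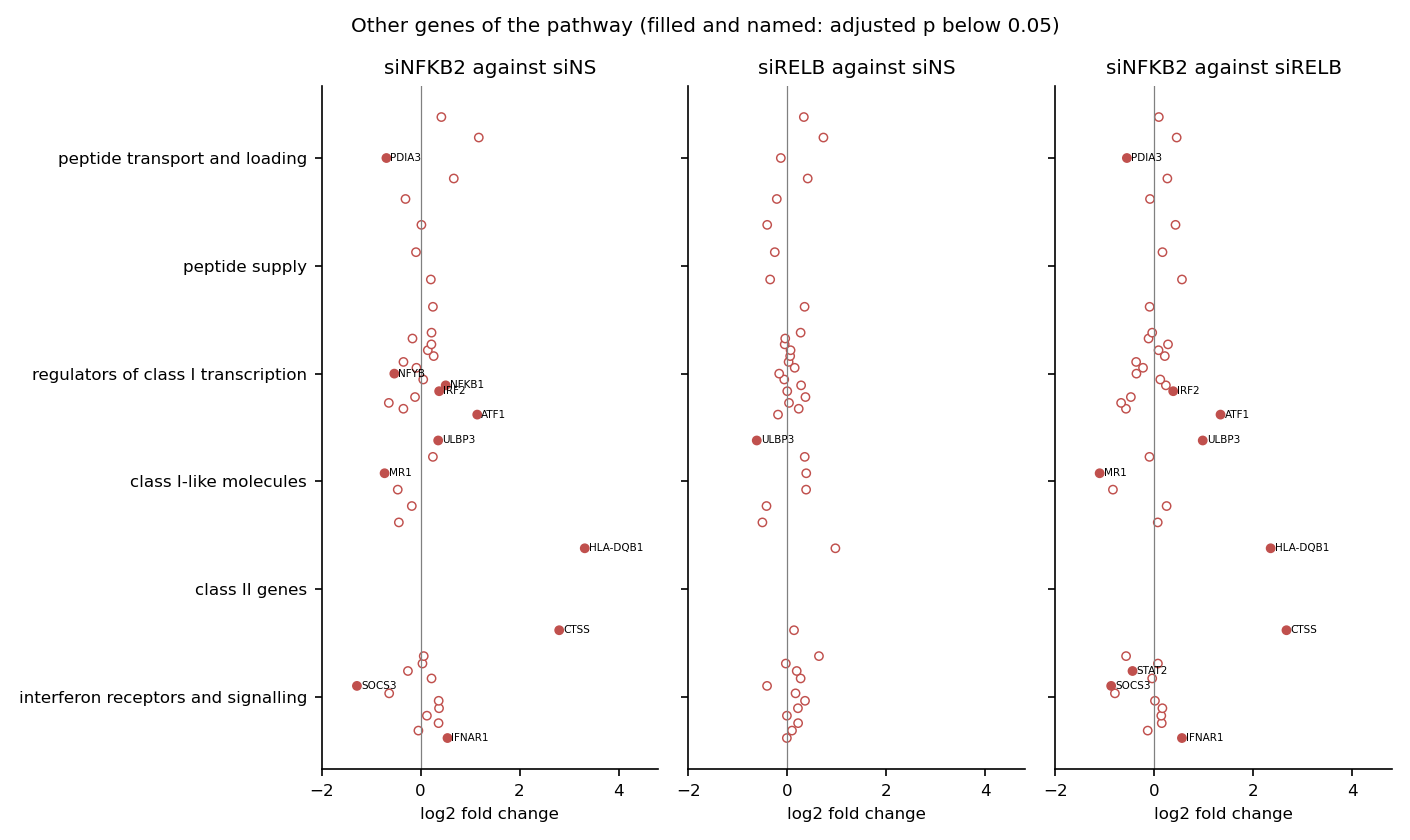
Log2 fold changes (horizontal axis) of the tested genes of 6 lists of the pathway in 3 comparisons, 1 point per gene; filled, named points have an adjusted p below 0.05. HLA-DQB1 and CTSS lie farthest to the right in both comparisons of siNFKB2, and in siRELB against siNS the only filled point is ULBP3.

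Relatives of class I molecules included 6 tested genes of 12, with a median log2 fold change of -0.31 in siNFKB2 against siNS; 1 was called higher and 1 lower there, where 26.1% of all rows were called, and 1 lower in siRELB against siNS, where 2.02% were. MR1, which presents vitamin B metabolites to MAIT cells, was lower after NFKB2 knockdown, at 3.49, 3.77 and 4.43 CPM in siNFKB2 libraries against 6.78, 5.88 and 6.64 CPM in siNS libraries. Its log2 fold change was -0.73 (adjusted p = 0.00958, and 0.0502 without siNFKB2 replicate 2). MR1 was also lower than in siRELB libraries, which were at 8.14, 8.95 and 8.04 CPM, by a log2 fold change of -1.11 (adjusted p = 0.00116). ULBP3, a ligand of the NKG2D receptor on natural killer cells, was at 32.4, 35.5 and 33.7 CPM in siNFKB2, 18.3, 16.6 and 16.6 CPM in siRELB, and 26.6, 28.4 and 24.3 CPM in siNS libraries. The 3 groups did not overlap. Between siNFKB2 and siRELB the log2 fold change was 0.98 (adjusted p = 0.00051), and this call was kept whichever library was left out. That against siNS was 0.36 in siNFKB2 (adjusted p = 0.0482) and -0.62 in siRELB (adjusted p = 0.0318). The first was lost in all 9 fits that left out 1 library, with adjusted p from 0.0521 to 0.152, and the second in 7, all but those without siNS replicate 1 or siNFKB2 replicate 1, with adjusted p up to 0.181.

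Interferon receptors and signalling genes gave 12 tested of 15, and the interferon genes IFNB1 and IFNG were listed at 0 in every library. The median log2 fold change of the 12 was 0.097 in siNFKB2 against siNS. SOCS3, an inhibitor of cytokine receptor signalling, fell in siNFKB2 cells, with a log2 fold change of -1.28 against siNS (adjusted p = 0.000614) and -0.87 against siRELB (adjusted p = 0.00397), and both calls were kept whichever library was left out. IFNAR1, a receptor subunit for type I interferon, rose by 0.54 against siNS (adjusted p = 0.0163) and 0.56 against siRELB (adjusted p = 0.0148). The first call was lost without siNS replicate 3 (adjusted p = 0.0682) or siNFKB2 replicate 2 (0.0690), and the second without siNFKB2 replicate 2, siRELB replicate 2 or siRELB replicate 3, with adjusted p up to 0.0695. STAT2, a signal transducer of the same receptor, fell by 0.44 on the log2 scale against siRELB (adjusted p = 0.0366) and lost its call in 6 of the 9, all but those without siNS replicate 1 or 2 or siNFKB2 replicate 1, with adjusted p up to 0.170. No gene of this list was called in siRELB against siNS. In siNFKB2 against siNS 2 of the 12 were called, beside 26.1% of all rows, and 4 with the replicate block, beside 40.1%.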

How the data were processed

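The authors' files, 1 per library, list unnormalized read counts as whole numbers for each gene. The submitters' processing notes name Trimmomatic 0.38, STAR 2.7.1a, Subread 1.6.4 and GRCh38.p13. Settings, annotation and the use of strand are not stated there. Per the labels' protocols, RNA was selected with oligo-dT. Tables held 44608 rows, 5005 of them suffixed, which held at most 0.0369% of a library's counts.

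Rows were filtered with filterByExpr of edgeR 4.0.16 (R 4.3.3), leaving 14815, scaled by TMM and fitted in 1 model with 3 group means over 9 libraries. Comparisons used the quasi-likelihood test of edgeR, with p-values adjusted by Benjamini-Hochberg over all rows tested and called below 0.05. Every adjusted p is from this test unless DESeq2 (1.42.0) is named. Levels are CPM on TMM-scaled sizes, and SE is the size of the log2 fold change over the root of its F value. Library totals, 15011789 to 19279572 counts, set the precision. The fit was tested on simulated data.

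Labels number the replicates without naming separate cultures, so the spread behind each p-value is that of these libraries and may be technical. Same-numbered libraries deviated together in all 9 pairs between groups (correlations 0.171 to 0.740), which is a pairing read from the data and not stated in the labels. It is mainly number 1 against the others, since differently numbered libraries among 2 and 3 correlated by 0.101 to 0.664. Within groups, libraries differed by chi-square values of 3.13 to 75.8 per degree of freedom, so none was a copy.

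Members and lists were chosen with earlier results of these data known. All 9 members are named, with up to 4 genes per list and comparison by smallest adjusted p, NFKB2 and RELB, and the 5 genes most like the members; other genes are said to be chosen after their values were seen. Members with a kilobase value use GENCODE 29 exon lengths. Alternatives were other scalings, filters and tools, summed rows, the replicate block, a mitochondrial rRNA covariate and leaving out libraries; the block with summed rows was added after seeing the data. Some genes that meet the naming rule are not reported here.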

Additional observations from a re-analysis of the deposited data

How the results depend on the processing

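In siNFKB2 against siNS, 0 of 4 members were called in the main analysis. The replicate block and leaving out the libraries numbered 1 each called 1, and the block with summed rows called 2 of 5. In siNFKB2 against siRELB, scaling by total counts, DESeq2 and a minimum mean of 5 CPM each called 1, the block and leaving out the libraries numbered 1 each called 2, the block with summed rows called 3 of 5, and leaving out 1 library called 0 to 1, with 1 only without siNS replicate 1. Over the 3 groups, the block and leaving out the libraries numbered 1 each called 1, and the block with summed rows called 2. In siRELB against siNS every alternative called 0. For alternatives other than the block, the total over all rows is given below only as a range. Their counts of members are therefore not read as a result about the members. Rows called across the genome numbered 3869 in siNFKB2 against siNS and 5944 with the replicate block, 299 and 1570 in siRELB against siNS, 3934 and 6054 in siNFKB2 against siRELB, and 4443 and 7247 over the 3 groups; over all alternatives they ranged from 2220 to 6711, 15 to 3390, 2188 to 6600 and 2385 to 8310 in the same order of comparisons.

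Some log2 fold changes that were not called changed sign, and the cause was not tested. Leaving out 1 library gave, in siNFKB2 against siNS, -0.38 to 0.56 for ERAP2, -0.53 to 0.14 for HLA-C, -0.60 to 0.048 for HLA-C_2, -0.71 to 0.026 for summed HLA-C, -0.37 to 0.18 for PSMB10 and -0.085 to 0.12 for PSME3. In siNFKB2 against siRELB it gave -0.012 to 0.52 for CANX, -0.21 to 0.014 for ERAP1, -0.035 to 0.91 for ERAP2, -0.55 to 0.095 for HLA-C_1, -0.13 to 0.27 for HLA-C_2, -0.15 to 0.29 for summed HLA-C and -0.12 to 0.25 for TAPBPL. In siRELB against siNS it gave -0.23 to 0.21 for B2M, -0.070 to 0.33 for CTSS, -0.39 to 0.19 for HLA-B_3 and -0.0014 to 0.049 for NLRC5. The mitochondrial rRNA covariate gave -0.39 for ERAP2 in siNFKB2 against siNS, and -0.068 for B2M, 0.0018 for ERAP1, -0.20 for ERAP2, -0.17 for PSMB10 and -0.23 for TAPBPL in siNFKB2 against siRELB. It gave 0.10 for B2M and 0.052 for HLA-B_3 in siRELB against siNS. Scaling by total counts gave 0.041 for B2M in siRELB against siNS, no filter gave -0.0099 for PSME3 in siNFKB2 against siNS, and without the libraries numbered 1 HLA-C_1 was at 0.043 in siNFKB2 against siRELB and CTSS at -0.027 in siRELB against siNS. Depth limits HLA-F, with at most 5 counts in a library over summed rows, and TAPBP, with at most 20 in the plain row.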

Other observations

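Class II genes encode molecules that present peptides taken up from outside the cell. Of 11 listed, 2 were tested and 7 were at 0 in every library, the class II chain gene HLA-DRA among them. HLA-DQB1, a class II chain, was at 1.45, 2.49 and 2.98 CPM in siNFKB2 libraries, 0.359, 0.705 and 0.274 CPM in siRELB libraries and 0.316, 0.125 and 0.220 CPM in siNS libraries. It rose in siNFKB2 against siNS by a log2 fold change of 3.32 (adjusted p = 0.00114) and against siRELB by 2.35 (adjusted p = 0.00350). The row had 27, 43 and 45 counts in siNFKB2 libraries, 7, 13 and 5 in siRELB libraries and 6, 2 and 4 in siNS libraries. It passed the filter on low counts only through the siNFKB2 libraries, where it is high. Its test and its calls are therefore given as a description and not as support. CTSS, a lysosomal protease that trims the invariant chain, was at 3.54, 9.98 and 8.67 CPM in siNFKB2 libraries, 1.18, 1.46 and 0.821 CPM in siRELB libraries and 0.841, 1.00 and 1.32 CPM in siNS libraries. It rose by 2.80 against siNS (adjusted p = 0.00109) and by 2.67 against siRELB (adjusted p = 0.00118). Both genes kept these calls whichever library was left out, and neither was called in siRELB against siNS, at 0.97 (adjusted p = 0.415) for HLA-DQB1 and 0.13 (adjusted p = 0.909) for CTSS. HLA-DQB1 lies in the stretch of chromosome 6 with further placements and has 7 rows. CTSS has 1 row. CD74, the invariant chain that accompanies class II molecules, averaged 0.0516 CPM per kilobase in siNFKB2, 0.0338 in siRELB and 0.0515 in siNS libraries and was not tested.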
